A study of Caenorhabditis elegans with 59 samples.

Results

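The 101 genes described here are those whose small RNA in late-generation Caenorhabditis elegans was filed by the authors under the class alg, the ALG-3/4 class, and averaged 10 or more normalised reads over the 12 generation 50 small RNA libraries. They were chosen by these generation 50 small RNA values alone. The table holds 23411 entries, of which 1400 carry that class, and the other 1299 stayed under the mean of 10. Small RNA and mRNA had been sequenced from gravid adults, taken whole and grown at 20 °C, to compare gene expression in prg-1 and mutator mutants with that in the wild type. The 53 libraries used here cover generation 1, generation 50 and a separate series on another prg-1 allele.

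The mutants at both generations were SX922, which carries prg-1(n4357), GR1948, which carries mut-14(mg464) and smut-1(tm1301) together with unc-119(ed3), and GR2070, which joins prg-1(n4357) to the same mut-14 and smut-1 alleles and is called the triple mutant here. All were set against the wild-type strain N2. WM161, which carries prg-1(tm872), was profiled for small RNA only, against its own N2 libraries. Animals of generation 1 were taken at 72 h and those of the tm872 series at 68 h, and no age is given for generation 50. Each group has 3 libraries, except mut-14 smut-1 in the generation 1 small RNA, which has 2. The generation 50 libraries are named as lines 1, 2 and 3, and nothing in the labels says that the generation 1 replicates came from separate cultures, so the p-values measure the spread between these samples. The unc-119 allele is labelled in mut-14 smut-1 alone, so its part cannot be told apart from that of mut-14 and smut-1 in that strain, nor from that of prg-1 where the triple mutant is set against mut-14 smut-1.

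ALG-3 and ALG-4 are Argonaute proteins of the male germline that bind 26G-RNAs, small RNAs made by the RNA-dependent RNA polymerase RRF-3 on messages of spermatogenesis. PRG-1 is the Argonaute that binds piRNAs, and the DEAD-box RNA helicases MUT-14 and SMUT-1 act in the mutator complex, which amplifies 22G-RNAs downstream of primary Argonautes. A hermaphrodite makes sperm as a larva and then switches to oocytes, so a gravid adult holds stored sperm and little or no ongoing spermatogenesis. The libraries are of whole animals, so fewer cells of a type and less RNA per cell cannot be told apart.

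Of the 101 members, 32 have a gene symbol beyond the sequence ID. Among them are all of spch-1, spch-2 and spch-3, which encode small basic proteins of sperm chromatin, 4 genes of the ssp family of small sperm-specific proteins (ssp-10, ssp-16, ssp-34 and ssp-35), smz-1, which encodes a PDZ-domain protein of sperm, msd-1 and msd-3 of the major sperm protein domain family, and spe-10, a palmitoyltransferase gene needed for sperm formation. Another 3, eef-1A.1 (translation elongation factor 1A), lin-61 (a chromatin protein with MBT repeats) and lrk-1 (a kinase of the LRRK family), are not known as sperm genes. The other named members include ncr-2, a homologue of the cholesterol transporter NPC1, dlc-6, a dynein light chain gene, ubc-24, a ubiquitin-conjugating enzyme gene, and clec-119, a C-type lectin gene. For 5 IDs that start with MTCE, 1 of them matched to ctb-1, the mitochondrial cytochrome b gene, the tm872 series lists no value, and the other 96 members are listed in every table. By RefSeq gene order on assembly WBcel235, 3 pairs of members are neighbours among protein-coding genes (msrp-5 and msrp-6, F36H12.3 and F36H12.4, sfxn-1.3 and Y6E2A.10).

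A deposited value is a read count divided by 1 factor per library. It is not scaled by gene length, so levels are compared between genotypes within a gene and not between genes. Depth, as reads assigned to features and recovered from the values, was 4417660 to 13038182 in the generation 50 small RNA, 224056 to 2117438 in the generation 1 small RNA, where the mut-14 smut-1 and triple mutant libraries held 224056 to 760735, and 1533620 to 2452755 in the tm872 series. For mRNA it was 12051119 to 23472318 at generation 1 and 14281899 to 63814072 at generation 50. Of the mutated genes, prg-1 in prg-1(n4357) and mut-14 in mut-14 smut-1 are given here for the generation 1 mRNA, and both followed the labels. The prg-1 level was 3905 ± 81.4 in prg-1(n4357), against 10339 ± 315 in the wild type, and mut-14 stood at 42.7 ± 5.82 in mut-14 smut-1, against 1810.3 ± 53.0 in the wild type (SD, n = 3 each). Line 1 of the wild type stood apart from lines 2 and 3 at generation 50, as the values below show.

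The generation 50 small RNA chose the members, so its values are a description with no test. Summed over the 96 members without the MTCE IDs, small RNA amounted to 1479.7, 2080.3 and 721 normalised reads in lines 1, 2 and 3 of prg-1(n4357). The same sum was 3129, 2609.8 and 4529 in mut-14 smut-1, and the triple mutant had 3732, 1506 and 2251. In the wild type it was 498, 26.1 and 68.9. Every mutant line exceeded every wild-type line in this sum, and line 1 of the wild type held most of the wild-type reads. The mean of mut-14 smut-1 was the highest of the 4 genotypes for 91 of the 101 members and that of the triple mutant for the other 10. A mean of 10 or more was reached by 62 members in prg-1(n4357), 101 in mut-14 smut-1, 100 in triple mutants and 3 in the wild type.

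Single members followed the sum. spch-1 had 66.0, 90.7 and 43.1 normalised small RNA reads in prg-1(n4357), 101, 110.2 and 109 in mut-14 smut-1, 142, 53.5 and 75.3 in triple mutants, and 23.0, 0 and 2.7 in the wild type. F10C1.3, the member with the most reads, had 48.2, 64.8 and 20.6 in prg-1(n4357), 134, 122 and 172 in mut-14 smut-1, 180.5, 45.5 and 114 in triple mutants, and 10.96, 1.34 and 4.05 in the wild type. Both genes were lowest in the wild type, and for both the highest wild-type value was that of line 1. Within the genotypes the members varied together: line 1 was the highest of the wild type for 94 of the 96 members, line 2 of prg-1(n4357) for 81, line 3 of mut-14 smut-1 for 85 and line 1 of the triple mutant for 85. The MTCE IDs were likewise higher in every mut-14 smut-1 line than in every wild-type line, but 3 of the 5 were not lowest in the wild type. MTCE.25, 1 of these, had 13.6, 21.3 and 28.4 in prg-1(n4357), 91.3, 101 and 62.2 in mut-14 smut-1, 21.8, 50.8 and 91.6 in triple mutants, and 24.01, 28.8 and 20.95 in the wild type, so that prg-1(n4357) and wild type overlapped.

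**Figure D1:**
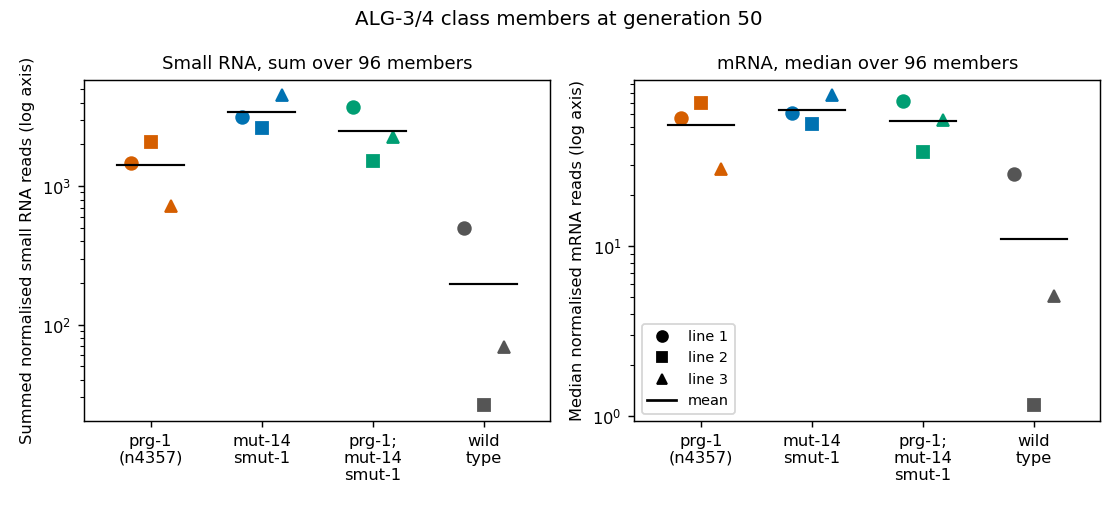
Small RNA and mRNA of the 96 members without MTCE IDs in each generation 50 line, on log axes: the left panel plots the summed normalised small RNA reads and the right panel the median normalised mRNA reads, with 1 symbol per line and a bar at the mean of the 3 lines. In both panels the wild type is lowest, and its line 1 (498 small RNA reads, median mRNA of 26.6) stands above its lines 2 and 3.

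The threshold cut through a continuous range. Just inside it were tag-164 with a mean of 10.12, C18A3.7 with 10.102 and R11E3.1 with 10.071, and just outside it were ZC21.8 with 9.993, spe-19 with 9.9 and F23B12.1 with 9.812. A mean of 5 would have kept 246 genes and a mean of 20 would have kept 34. Which reads were counted for a class is not stated by the labels or headers. The class entry can be a part of the small RNA at a gene: 5 members (clec-119, Y18D10A.21, K11H3.2, eef-1A.1 and lin-61) have a second entry under another class, each with the higher mean. For clec-119 the entry of the class mut averaged 98.1 ± 36.7 in prg-1(n4357), against 551 ± 146 in the wild type, while its alg entry averaged 29.5 ± 11.6 in prg-1(n4357), against 2.71 ± 3.59 in the wild type (SD, n = 3 each). The wild type thus stood above prg-1(n4357) in one entry of this gene and below it in the other. The generation 1 table lists each gene once, without a class, so its values are those of all small RNA counted at a gene.

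The mRNA of the members, which the choice did not use, was higher in the mutants than in the wild type at generation 1. The small RNA that chose them reached a mean of 10 in the wild type for only 3 members. The choice thus rested largely on mutant libraries, and its part in the mRNA values was not tested. The median over the 96 members without MTCE IDs was 25.3 normalised reads in prg-1(n4357), 54.3 in mut-14 smut-1, 74.4 in triple mutants and 8.13 in the wild type. For 83 of the 96 members the triple mutant had the highest mean, followed by mut-14 smut-1, prg-1(n4357) and the wild type in this order. Of 96 members tested with limma on log2(value + 1), 82 rose and 2 fell in prg-1(n4357) against the wild type, where 57.8% of all 14555 genes were called, 25.7% higher and 32.1% lower. In mut-14 smut-1, 91 rose and 3 fell against the same wild-type libraries, where 78.3% of all genes were called, 38.2% higher and 40.1% lower. The median log2 change was 1.66 in prg-1(n4357) and 2.77 in mut-14 smut-1, while over all genes tested it was -0.02 and 0.04. The libraries of the mutant and the wild type did not overlap for 82 members in prg-1(n4357), as for 61.4% of all genes tested, and for 93 in mut-14 smut-1, as for 81.0% of all genes. Of the 96 tested, 56 had a wild-type mean under 10 and passed the filter on low values through a mutant. Among the 40 with a wild-type mean of 10 or more, 33 rose and 2 fell in prg-1(n4357), and 35 rose and 3 fell in mut-14 smut-1. The members not tested were F36H12.3, R02D5.10, C35E7.9, T13F3.8 and MTCE.35, whose mRNA stayed under the filter. The 96 tested thus include the other MTCE IDs and are not the same 96 as in the medians and the order of means.

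**Figure D2:**
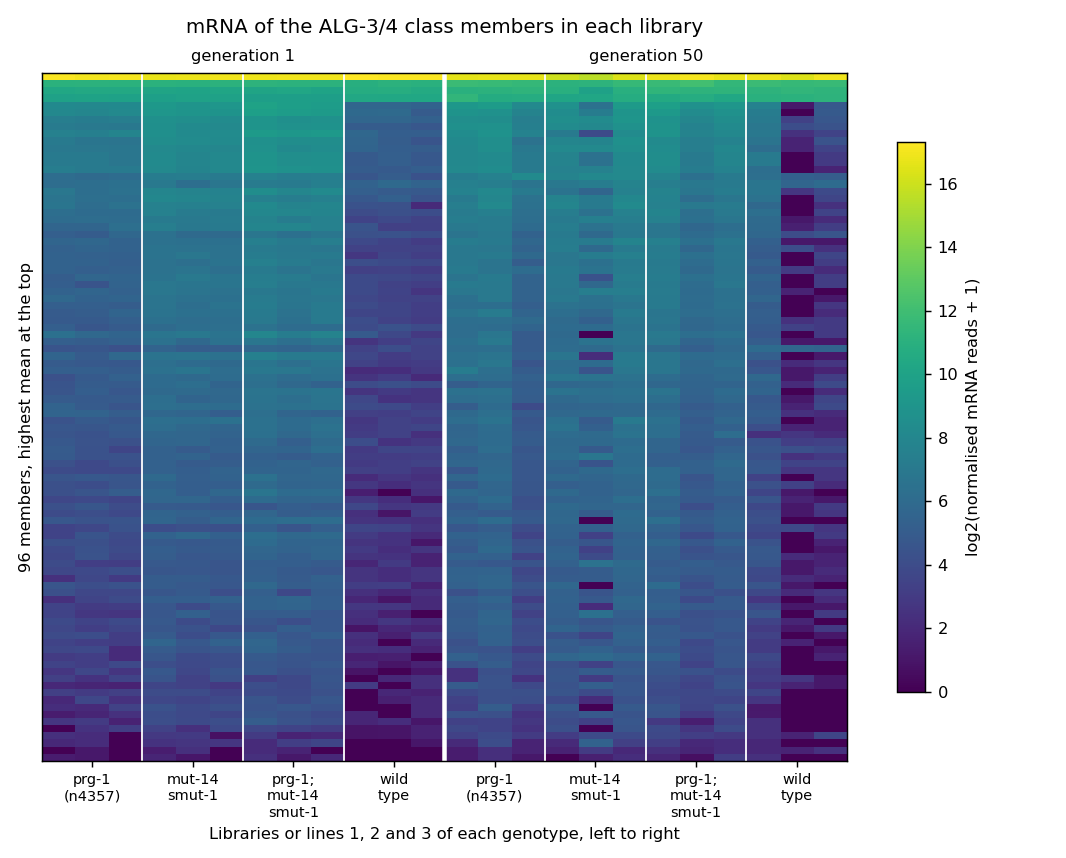
The mRNA of the 96 members without MTCE IDs (rows, highest mean at the top) in each library (columns, libraries or lines 1, 2 and 3 of each genotype), coloured by log2(normalised mRNA reads + 1). At generation 1 the wild-type columns are the darkest for nearly all rows, and at generation 50 lines 2 and 3 of the wild type are darker than line 1.

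The sperm chromatin genes rose together, 3 of 3 in each mutant. spch-1 had 199, 180.0 and 222 normalised mRNA reads in prg-1(n4357), 397, 308 and 326 in mut-14 smut-1, 688, 562 and 662 in triple mutants, and 53.2, 35.9 and 35.7 in the wild type. The 4 genotypes did not overlap. The log2 change was 2.26 ± 0.144 in prg-1(n4357) (SE, adjusted p = 1.98e-09), and 3.03 ± 0.144 in mut-14 smut-1 (adjusted p = 1.99e-11). The change of spch-3 was 2.16 ± 0.12 in prg-1(n4357) and 2.97 ± 0.12 in mut-14 smut-1. The small RNA values of spch-2 and spch-3 were nearly equal in every library, so reads may be shared between these near-identical genes.

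All 4 ssp genes rose in both mutants, by 1.55 to 2.58 on the log2 scale in prg-1(n4357) and by 2.77 to 3.53 in mut-14 smut-1. ssp-35 had 68.1, 73.7 and 68.4 reads in prg-1(n4357), 136, 126 and 145 in mut-14 smut-1, 214, 155 and 191 in triple mutants, and 10.3, 13.2 and 9.44 in the wild type. Its change of 2.58 ± 0.159 in prg-1(n4357) (adjusted p = 1.35e-09) and of 3.53 ± 0.159 in mut-14 smut-1 (adjusted p = 1.01e-11) was the largest of the family. smz-1 had 171, 151 and 171 reads in prg-1(n4357), 409, 369.7 and 333 in mut-14 smut-1, 501, 396 and 435 in triple mutants, and 50.7, 51.0 and 39.9 in the wild type. It rose by 1.79 ± 0.118 in prg-1(n4357) (adjusted p = 3.3e-09) and by 2.95 ± 0.118 in mut-14 smut-1 (adjusted p = 2.36e-12). msd-1 and msd-3 carry identical mRNA values in every library and count as 1 measurement, with 135, 133 and 113 in prg-1(n4357), 304, 234 and 271 in mut-14 smut-1, 471, 369 and 389 in triple mutants, and 28.3, 36.8 and 26.2 in the wild type. spe-10 had 11.6, 20.53 and 12.1 in prg-1(n4357), 32.9, 25.1 and 27.7 in mut-14 smut-1, 45.8, 35.8 and 48.3 in triple mutants, and 5.15, 4.72 and 2.1 in the wild type, and rose by 1.68 ± 0.316 in prg-1(n4357) (adjusted p = 0.000315) and by 2.62 ± 0.316 in mut-14 smut-1 (adjusted p = 1.09e-06). The 3 msrp genes also rose in both mutants. msrp-2 had 301, 267 and 290.3 in prg-1(n4357), 593, 500.3 and 557 in mut-14 smut-1, 995, 829.5 and 756 in triple mutants, and 51.5, 51.9 and 41.9 in the wild type. It was again lowest in the wild type and highest in the triple mutant, with no overlap between genotypes.

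The members without a symbol moved the same way. Of the 61 tested, 55 rose in prg-1(n4357) and 61 in mut-14 smut-1, and none fell in either mutant by the limma test. The largest rises of all members were those of H08M01.1, which had 17.4, 22.9 and 33.1 reads in prg-1(n4357), 55.4, 36.0 and 55.4 in mut-14 smut-1, 107, 67.0 and 69.4 in triple mutants, and 1.72, 0 and 4.2 in the wild type. Its change was 3.35 ± 0.444 in prg-1(n4357) (adjusted p = 1.16e-05) and 4.34 ± 0.444 in mut-14 smut-1 (adjusted p = 1.61e-07). F10C1.3 was an exception in prg-1(n4357), at 1.45, 2.42 and 4.42 there, 16.1, 13.1 and 11.1 in mut-14 smut-1, 23.4, 18.5 and 14.1 in triple mutants, and 2.58, 0 and 3.15 in the wild type. The prg-1(n4357) and wild-type values overlapped (log2 change 0.54 ± 0.517, adjusted p = 0.387), while mut-14 smut-1 lay above both (2.54 ± 0.517, adjusted p = 0.00028). Of 15 other members with a symbol, counting spe-10 again and leaving out ctb-1, 13 rose in prg-1(n4357) and 14 in mut-14 smut-1. Among them ncr-2 had 71.0, 77.3 and 82.8 in prg-1(n4357), 130.1, 76.4 and 112 in mut-14 smut-1, against 42.9, 60.4 and 44.1 in the wild type. ampd-1, which encodes AMP deaminase, was called in neither, at 2168, 2198 and 2143 in prg-1(n4357), 2116, 2071 and 2257 in mut-14 smut-1, against 1892, 2213 and 2013 in the wild type.

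By limma, 3 members fell in mut-14 smut-1 (lin-61, lrk-1 and eef-1A.1), of which lin-61 and lrk-1 fell in prg-1(n4357) too. lin-61 had 1248, 1420.1 and 1426 reads in prg-1(n4357), 1109, 1081 and 1161 in mut-14 smut-1, against 1694, 1750.2 and 1547 in the wild type. It fell by 0.29 on the log2 scale in prg-1(n4357) (SE 0.067, adjusted p = 0.00175) and by 0.57 in mut-14 smut-1 (SE 0.067, adjusted p = 7.64e-07). lrk-1 had 981, 1032 and 945 in prg-1(n4357), 861, 940.3 and 958 in mut-14 smut-1, against 1326, 1286 and 1255 in the wild type, and fell in both mutants with no overlap (adjusted p = 2e-05 and 4.12e-07). eef-1A.1 fell in mut-14 smut-1 only by the test, with a log2 change of -0.43 ± 0.0754 (adjusted p = 6.62e-05), against -0.14 ± 0.0754 in prg-1(n4357) (adjusted p = 0.13), and the difference between the 2 was not tested. A near-identical paralogue of eef-1A.1 exists, so reads may be split between them.

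**Figure D3:**
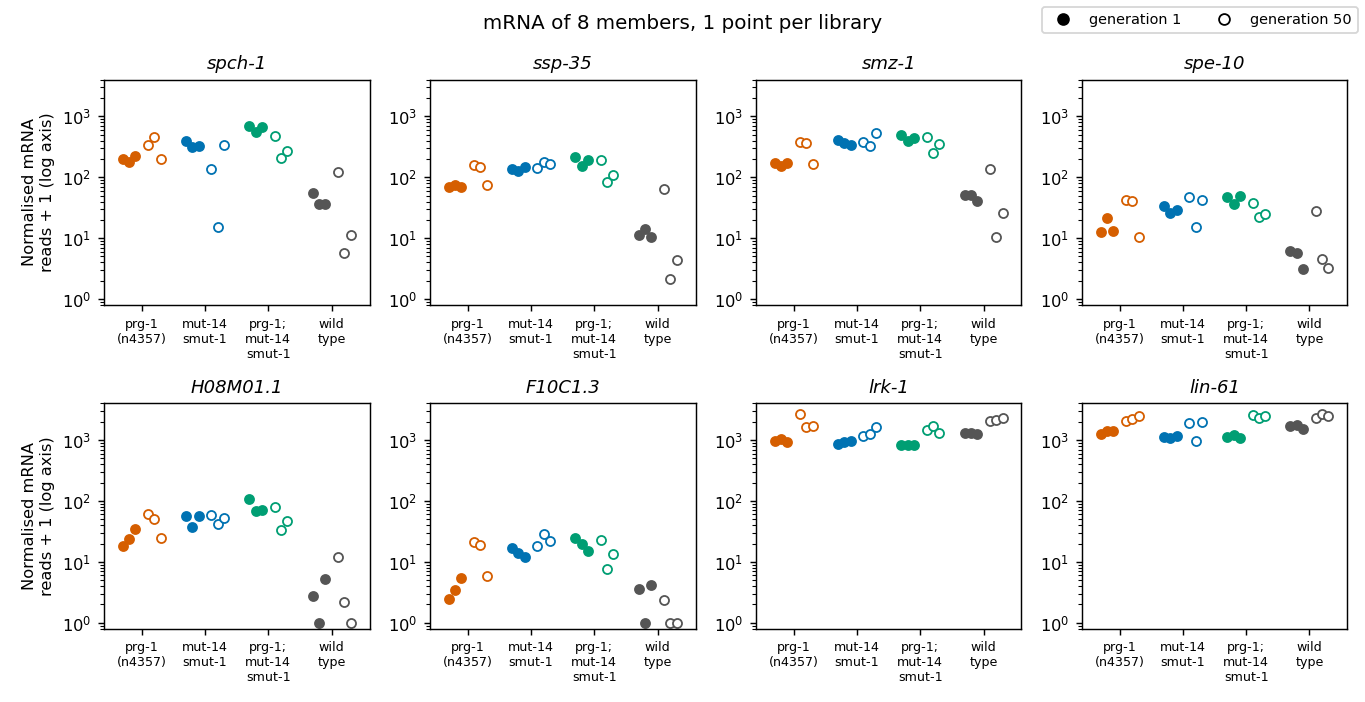
Normalised mRNA reads plus 1 of 8 members on log axes, with 1 point per library, filled for generation 1 and open for generation 50. spch-1, ssp-35, smz-1, spe-10 and H08M01.1 are lowest in the wild type at generation 1, F10C1.3 overlaps between prg-1(n4357) and wild type, and lrk-1 and lin-61 are highest in the wild type, all at generation 1.

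The rise was shared with the wider class and with other sperm genes. Of the 1236 other ALG-3/4 class genes tested at generation 1, 679 rose and 304 fell in prg-1(n4357), with a median log2 change of 0.95, and 775 rose and 357 fell in mut-14 smut-1, with a median of 1.93. All 31 tested genes of a list of 35 major sperm proteins, the cytoskeletal proteins of nematode sperm, rose in each mutant. The summed level of all 35 was 7690 to 8537 in prg-1(n4357), 17663 to 20798 in mut-14 smut-1, 26336 to 31955 in triple mutants and 1820 to 2591 in the wild type. Of 33 genes of the small sperm-specific families, 7 of them members, 31 rose in prg-1(n4357) and 32 in mut-14 smut-1. Of 39 genes of spermatogenesis, spe-10 among them, 29 rose and 2 fell in prg-1(n4357), and 31 rose and 6 fell in mut-14 smut-1, and of 8 tau tubulin kinase genes 6 rose and 1 fell in prg-1(n4357), and 8 rose in mut-14 smut-1. Lists of other cells moved too. Of 19 oocyte and eggshell genes 16 fell in prg-1(n4357) and 19 in mut-14 smut-1, with summed levels of 287815 to 311610 in prg-1(n4357), 219309 to 245571 in mut-14 smut-1, 220651 to 251887 in triple mutants and 353569 to 382072 in the wild type. All 12 body wall muscle genes rose in each mutant, with summed levels of 85203 to 105740 in prg-1(n4357), 112621 to 140722 in mut-14 smut-1, 98152 to 126517 in triple mutants and 66026 to 72644 in the wild type. Of 17 genes of the mitotic and meiotic germline 13 fell in prg-1(n4357) and 16 in mut-14 smut-1, of 6 yolk genes none was called in prg-1(n4357) and 6 fell in mut-14 smut-1, of 10 intestinal genes 1 rose and 2 fell in prg-1(n4357), and 6 rose and 2 fell in mut-14 smut-1, and of 8 early embryonic genes 3 fell in prg-1(n4357), and 1 rose and 5 fell in mut-14 smut-1. Of 5 tested male-specific genes, which mark male tissue outside the germline, 1 fell in prg-1(n4357), and 2 rose and 1 fell in mut-14 smut-1. The summed level of all 11 genes of that list was 196 to 249 in prg-1(n4357), 278 to 303 in mut-14 smut-1, 281 to 343 in triple mutants and 195 to 242 in the wild type. The part of these shifts in the members' values was not tested.

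Within the ALG-3/4 pathway, the genes for the 2 Argonautes moved with the members. alg-3 averaged 158 ± 5.77 in prg-1(n4357), 372 ± 18.9 in mut-14 smut-1, 491 ± 63.5 in triple mutants and 40.9 ± 15.4 in the wild type (SD, n = 3 each), and alg-4 rose in both mutants as well. Of the 13 genes of a list of the ALG-3/4 and 26G pathway, the other 10 called in prg-1(n4357) and the other 11 called in mut-14 smut-1 fell. rrf-3, the polymerase that makes 26G-RNAs, fell by 0.33 on the log2 scale in prg-1(n4357) (adjusted p = 3.69e-05) and by 0.54 in mut-14 smut-1 (adjusted p = 3.58e-08). csr-1, whose protein binds 22G-RNAs of germline genes, fell by 0.15 in prg-1(n4357) (adjusted p = 0.0172) and by 0.68 in mut-14 smut-1 (adjusted p = 2.68e-09). Of 14 genes of the mutator complex and RNA-dependent RNA polymerases, 13 fell and 1 rose in prg-1(n4357), and 13 fell in mut-14 smut-1, mut-14 itself among them. At generation 50 alg-3 averaged 382 ± 104 in prg-1(n4357), 340.5 ± 188 in mut-14 smut-1, 342 ± 138 in triple mutants and 52.5 ± 72.7 in the wild type, and rose in prg-1(n4357) and in mut-14 smut-1 (adjusted p = 0.0246 and 0.0146).

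In the triple mutant against mut-14 smut-1, which differ by label in prg-1 and in unc-119(ed3), the share of members called was near that of all genes. Of 96, 11 rose and none fell in the triple mutant against mut-14 smut-1 by limma, where 11.6% of all genes were called, 6.07% higher and 5.53% lower, and the median log2 change was 0.42 for the members and -0.02 for all genes. The log2 change was above 0 for 87 of the 96, and 34 were higher and 2 lower at an unadjusted p under 0.05. In the same comparison unc-119 averaged 58.1 ± 10.3 in the triple mutant, against 27.7 ± 3.35 in mut-14 smut-1 (SD, n = 3 each; log2 change 1.03 ± 0.184, adjusted p = 0.00122), and its part in the members' values was not tested. The called genes include spch-1 (0.89 ± 0.144, adjusted p = 0.000487), spch-3 (0.81 ± 0.12, adjusted p = 0.000215), msrp-2 (0.64 ± 0.108, adjusted p = 0.000782) and F40G12.10, which had 181, 135 and 169 reads in the triple mutant, against 87.5, 82.9 and 83.7 in mut-14 smut-1. For 50 members the 2 genotypes did not overlap, as for 31.1% of all genes tested. The number called depended on single libraries: it was 4 without mut-14 smut-1 replicate 2, 6 without replicate 3 and 5 without replicate 1 of the triple mutant, and edgeR's quasi-likelihood test on recovered reads called 31. The difference between the change in the triple mutant against mut-14 smut-1 and that in prg-1(n4357) against the wild type, called the difference of the prg-1 effects below although the first change also spans unc-119, was called for 61 members, 59 of them lower and 2 higher, where 37.4% of all genes were called, 17.4% lower and 20.0% higher, with a median difference of -1.28 for the members and 0.04 for all genes. For H08M01.1 it was -2.64 ± 0.628 (adjusted p = 0.00418).

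**Figure D4:**
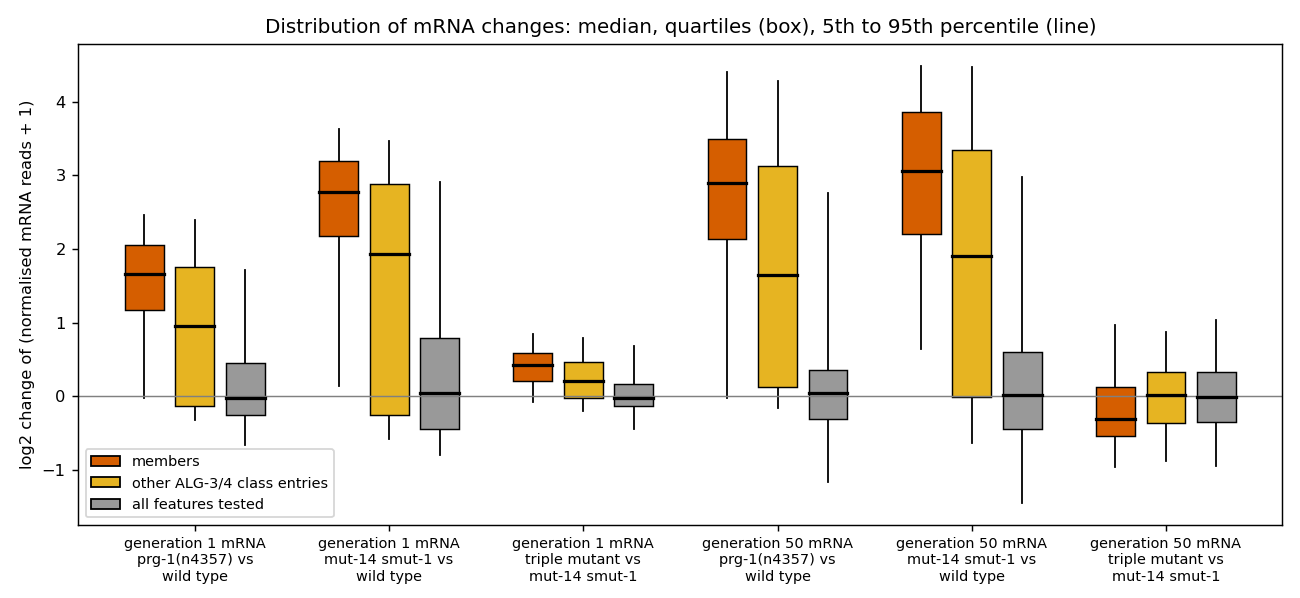
Log2 changes of mRNA in 6 comparisons for the members, the other ALG-3/4 class entries and all features tested: the thick line is the median, the box the quartiles and the thin line the 5th to the 95th percentile. Against the wild type the members' medians are 1.66 and 2.77 at generation 1 and 2.90 and 3.06 at generation 50, above both other groups of genes, and between the triple mutant and mut-14 smut-1 they are 0.42 at generation 1 and -0.31 at generation 50. The members were chosen by generation 50 small RNA values, which were highest in mutants.

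At generation 50 the members' mRNA was again lowest in the wild type, with more spread between lines. The median over the 96 members was 57.0, 69.3 and 28.6 in lines 1, 2 and 3 of prg-1(n4357), 61.0, 52.5 and 77.3 in mut-14 smut-1, 71.6, 36.1 and 55.2 in triple mutants, and 26.6, 1.16 and 5.09 in the wild type. Line 1 of the wild type came close to line 3 of prg-1(n4357) and was far above the other wild-type lines. It was the highest wild-type line for 90 of the 96 members, as it was for 94 in the small RNA, and it also had the highest summed major sperm protein level of the wild type. That level was 8733 to 22590 in prg-1(n4357), 6399 to 18493 in mut-14 smut-1, 10355 to 22880 in triple mutants and 45 to 8510 in the wild type, so that mut-14 smut-1 and wild type overlapped. Of 31 major sperm protein genes 14 rose in prg-1(n4357) and 19 in mut-14 smut-1. The summed oocyte and eggshell level was 298713 to 408386 in prg-1(n4357), 233200 to 289953 in mut-14 smut-1, 350690 to 401029 in triple mutants and 333999 to 389695 in the wild type, and 11 of these 19 genes fell in mut-14 smut-1. The summed level of the 11 male-specific genes was 405 to 546 in prg-1(n4357), 540 to 802 in mut-14 smut-1, 578 to 724 in triple mutants and 398 to 431 in the wild type. Of the 7 tested, 1 rose and 3 fell in mut-14 smut-1. The part of these lists in the members' values was not tested. Whether small RNA and mRNA libraries of a line came from the same animals is not stated.

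Of 98 members tested, 55 rose and none fell in prg-1(n4357) against the wild type at generation 50, where 11.3% of all 16245 genes were called, 7.47% higher and 3.85% lower. In mut-14 smut-1, 79 rose and 3 fell against the same wild-type lines, where 27.9% of all genes were called, 16.6% higher and 11.4% lower. Mutant and wild-type lines did not overlap for 57 members in prg-1(n4357), as for 34.9% of all genes, and for 73 in mut-14 smut-1, as for 41.0% of all genes. The median log2 change of the members was 2.90 in prg-1(n4357) and 3.06 in mut-14 smut-1, while over all genes it was 0.04 and 0.01. Of the 59 members with a wild-type mean of 10 or more, 31 rose in prg-1(n4357), and 49 rose and 3 fell in mut-14 smut-1. Without line 1 of the wild type, 79 members rose in prg-1(n4357) and none fell, and 85 rose and 1 fell in mut-14 smut-1. The calls in prg-1(n4357) also rested on the other lines. They numbered 9 without line 2 and 3 without line 3 of the wild type, 11 without line 1 and 3 without line 2 of prg-1(n4357), 36 without line 1 of mut-14 smut-1, and 35, 36 and 33 without lines 1, 2 and 3 of the triple mutant, and edgeR on recovered reads called 21. Those in mut-14 smut-1 numbered 48 without line 3 of the wild type. The 3 members that fell in mut-14 smut-1 were again eef-1A.1, lin-61 and lrk-1, and the 5 MTCE IDs were among those that rose, by 0.67 (MTCE.25) to 1.098 (MTCE.11) on the log2 scale.

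smz-1 was called higher in both mutants at generation 50, with 375, 361 and 165 reads in prg-1(n4357), 376, 326 and 524 in mut-14 smut-1, 464, 245 and 353 in triple mutants, and 136, 9.26 and 24.9 in the wild type (log2 change 3.09 ± 0.722, adjusted p = 0.0229, in prg-1(n4357), and 3.598 ± 0.722, adjusted p = 0.00575, in mut-14 smut-1). spch-3 had 282, 337 and 136 in prg-1(n4357), 194, 196 and 285 in mut-14 smut-1, 331, 154 and 206 in triple mutants, and 74.3, 0 and 2.26 in the wild type, where all mutant lines lay above all wild-type lines. The smz-1 call in prg-1(n4357) was lost with edgeR (adjusted p = 0.0572) and without line 1 or 2 of prg-1(n4357) or line 2 or 3 of the wild type (adjusted p of 0.0651 to 0.0877), and that of spch-3 was lost in the same settings (adjusted p of 0.0518 to 0.0799). F10C1.3, not called in prg-1(n4357) at generation 1, had 20.0, 18.1 and 4.76 there at generation 50, 17.4, 27.2 and 21.1 in mut-14 smut-1, 21.7, 6.62 and 12.3 in triple mutants, and 1.4, 0 and 0 in the wild type. It rose by 3.30 ± 0.652 in prg-1(n4357) (adjusted p = 0.0126) and by 4.07 ± 0.652 in mut-14 smut-1 (adjusted p = 0.00201), and the call in prg-1(n4357) was lost without its line 2 (adjusted p = 0.0572) or without line 3 of the wild type (adjusted p = 0.0542). F10C1.3 passed the filter through the mutants, and the size of its change depended on the setting. With a pseudocount of 10 it was 1.15 in prg-1(n4357) and 1.6 in mut-14 smut-1, and with edgeR 4.73 and 5.38. The generations are separate tables, and the difference between them was not tested. In the triple mutant against mut-14 smut-1 at generation 50, limma called none of the 98 members, where 1.98% of all genes were called, 1.43% higher and 0.548% lower. The lines did not overlap for 14 members, as for 26.5% of all genes. At an unadjusted p under 0.05, 3 were higher and 5 lower, edgeR called 0 after adjustment, and without line 3 of mut-14 smut-1 limma called 8, of which 3 were higher and 5 lower. The difference of the prg-1 effects was called lower for 7 members and higher for none, where 4.65% of all genes were called, 2.89% lower and 1.76% higher, and at an unadjusted p under 0.05 it was lower for 71 and higher for 2. That count rested on single lines: without line 1 of the wild type it was 68, and without each of the other lines in turn it lay between 1 and 12.

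Line 2 of mut-14 smut-1 held little or no mRNA of some members at generation 50. For 12 of the 96 its value plus 1 was more than 4-fold below those of both other lines of this genotype, which held for no member in lines 1 and 3 and for 23 members in line 2 of the wild type. spch-1 had 136, 14.5 and 333 reads in lines 1, 2 and 3, spch-2 had 58.8, 0 and 108, ssp-16 had 57.7, 0 and 62.1, and C05C12.5 had 106, 3.62 and 136. Small RNA did not show the gap: it was 101, 110.2 and 109 for spch-1, 46.7, 40.6 and 35.9 for spch-2, 38.7, 36.2 and 57.4 for ssp-16 and 31.8, 33.3 and 63.4 for C05C12.5. The genes were singled out after their values were seen. Small RNA reads may be shared between spch-2 and spch-3, so those given for spch-2 may not be its own. With that line the change of spch-1 against the wild type was 2.18 ± 1.15 (adjusted p = 0.177) and was not called.

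At generation 1, where small RNA is given per gene and not per class, members moved in both directions. Only 30 of the 101 passed the filter on low values, 20 of them with a wild-type mean under 10. In prg-1(n4357) 18 rose and 5 fell, where 66.2% of all 7418 genes were called, 27.9% higher and 38.3% lower. In mut-14 smut-1 20 rose and 6 fell against the same wild-type libraries, where 68.7% of all genes were called, 21.9% higher and 46.9% lower. The median log2 change of the members was 1.39 in prg-1(n4357) and 1.91 in mut-14 smut-1, against -0.10 and -0.47 over all genes. Mutant and wild-type libraries did not overlap for 26 members in each mutant, as for 76.4% of all genes in prg-1(n4357) and 80.0% in mut-14 smut-1. Among the 10 members with a wild-type mean of 10 or more, 2 rose and 5 fell in prg-1(n4357), and 2 rose and 6 fell in mut-14 smut-1. The values in mut-14 smut-1 depended on the scaling: with library totals in place of the authors' factors the median of all genes moved to 0.75, and 44 members were called higher and 5 lower. The filter was applied after this rescaling, so more than the 30 members entered that test and the counts are not of the same members. In the tm872 series 17 members were tested, of which 10 rose and 6 fell in prg-1(tm872), where 75.6% of all 7273 genes were called, 34.2% higher and 41.4% lower, and 16 had no overlap, as for 78.8% of all genes. This count was 10, 8 and 9 without replicates 1, 2 and 3 of prg-1(tm872). Of the 17, 9 had a wild-type mean under 10. Among the 8 with a wild-type mean of 10 or more, 2 rose and 6 fell in prg-1(tm872).

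The small RNA of all 3 sperm chromatin genes and of ssp-16 and ssp-34, the ssp genes that passed the filter, rose in both mutants. spch-1, ssp-16 and ssp-34 stayed under 10 in the wild type and passed the filter through a mutant, which favours a rise. Of the 10 members with a wild-type mean of 10 or more, only 2 rose in each mutant, lin-61 among them. The rise of these sperm genes thus rests mostly on genes that passed the filter through a mutant. Reads may be shared between spch-2 and spch-3, so these may not be separate measurements. spch-1 had 37.4, 34.4 and 30.6 normalised small RNA reads in prg-1(n4357), 57.1 and 36.9 in mut-14 smut-1, 36.5, 32.8 and 43.4 in triple mutants, and 1.64, 4.56 and 0 in the wild type. It rose by 3.84 ± 0.502 in prg-1(n4357) (adjusted p = 6.52e-05) and by 4.26 ± 0.562 in mut-14 smut-1 (adjusted p = 6.28e-05). In the tm872 series it had 40.1, 34.9 and 45.7 in prg-1(tm872), against 1.91, 0 and 2.17 in the wild type (4.29 ± 0.428, adjusted p = 1.13e-05). ssp-16 had 14.7, 14.9 and 21.7 in prg-1(n4357), 6.59 and 12.8 in mut-14 smut-1, 19.5, 10.9 and 22.7 in triple mutants, and 0, 1.01 and 0 in the wild type, and in the tm872 series 27.04, 29.6 and 25.5 in prg-1(tm872), against 0, 2.4 and 0 in the wild type. Both genes were thus higher in all mutant libraries than in any wild-type library. F17E9.5 had 5.67, 3.71 and 6.92 in prg-1(n4357), 15.4 and 15.2 in mut-14 smut-1, 1.96, 4.1 and 8.26 in triple mutants, and 0 in all 3 wild-type libraries. Against a floor of 3 reads per library it was at least 2.62-fold higher in prg-1(n4357) and at least 7.38-fold higher in mut-14 smut-1. ssp-34, also at 0 in the wild type, was at least 2.78-fold higher in prg-1(n4357) and at least 3.66-fold higher in mut-14 smut-1. With these genes at their bounds the median log2 change over the 30 members was 1.36 in prg-1(n4357) and 1.88 in mut-14 smut-1.

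Other members lost small RNA. clec-119 had 13.6, 5.57 and 0.988 in prg-1(n4357), 6.59 and 10.4 in mut-14 smut-1, 14.3, 2.73 and 18.6 in triple mutants, and 117, 107 and 118.8 in the wild type. It fell by 4.32 on the log2 scale in prg-1(n4357) (SE 0.735, adjusted p = 0.000418) and by 3.63 in mut-14 smut-1 (SE 0.822, adjusted p = 0.0026). In the tm872 series it had 15.02, 17.98 and 14.9 in prg-1(tm872), against 166, 206 and 181 in the wild type. K08E4.7 had 5.67, 1.86 and 1.98 in prg-1(n4357), 0 and 5.62 in mut-14 smut-1, 4.56, 4.1 and 10.3 in triple mutants, and 44.3, 40.0 and 44.8 in the wild type. K11H3.2 had 2.27, 3.71 and 1.98 in prg-1(n4357), 4.39 and 7.22 in mut-14 smut-1, 4.56, 1.37 and 6.19 in triple mutants, and 40.2, 41.0 and 32.1 in the wild type. All 3 genes were lower in every mutant library than in every wild-type library. lin-61, whose mRNA fell, gained small RNA: it had 174, 166 and 184 in prg-1(n4357), 154 and 202 in mut-14 smut-1, 190.2, 191 and 227 in triple mutants, and 119.02, 114 and 111 in the wild type (0.60 ± 0.109, adjusted p = 0.00067, in prg-1(n4357)). The normalised total over all genes was higher in prg-1(n4357) too, at 1561269 to 1676349, against 1067791 to 1082925 in the wild type. The small rise of lin-61 in prg-1(n4357) may therefore depend on the scaling.

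Of 14 members tested with both alleles of prg-1, each against its own wild-type libraries, 7 (50.0%) rose with each allele, 5 (35.7%) fell with each, and none was called in opposite directions. Of all 7070 genes tested in both series, 22.1% rose with each allele, 34.6% fell with each, and 1.24% and 1.3% were called in opposite directions. In the tm872 series, 9 of 17 members had passed the filter with a wild-type mean under 10. This favours a rise, so the members' shares are not set against those of all genes. Y18D10A.21 differed in its values, with 40.8, 40.9 and 41.5 in prg-1(n4357), against 23.0, 29.4 and 33.6 in the wild type (0.52 ± 0.574, adjusted p = 0.443), and 7.01, 5.29 and 13.8 in prg-1(tm872), against 34.4, 50.5 and 50.8 in the wild type of that series (-2.33 ± 0.337, adjusted p = 0.00016). In mut-14 smut-1 it had 4.39 and 0. W08E3.4 had 395, 395 and 446 in prg-1(tm872), against 1.91, 1.2 and 2.9 in the wild type (7.14 ± 0.233, adjusted p = 4.62e-09), while at generation 1 it had 1.13, 3.71 and 0.988 in prg-1(n4357), against 7.39, 2.02 and 1.5 in the wild type, too few reads to enter the test. The tables were normalised separately and the difference between alleles was not tested.

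**Figure D5:**
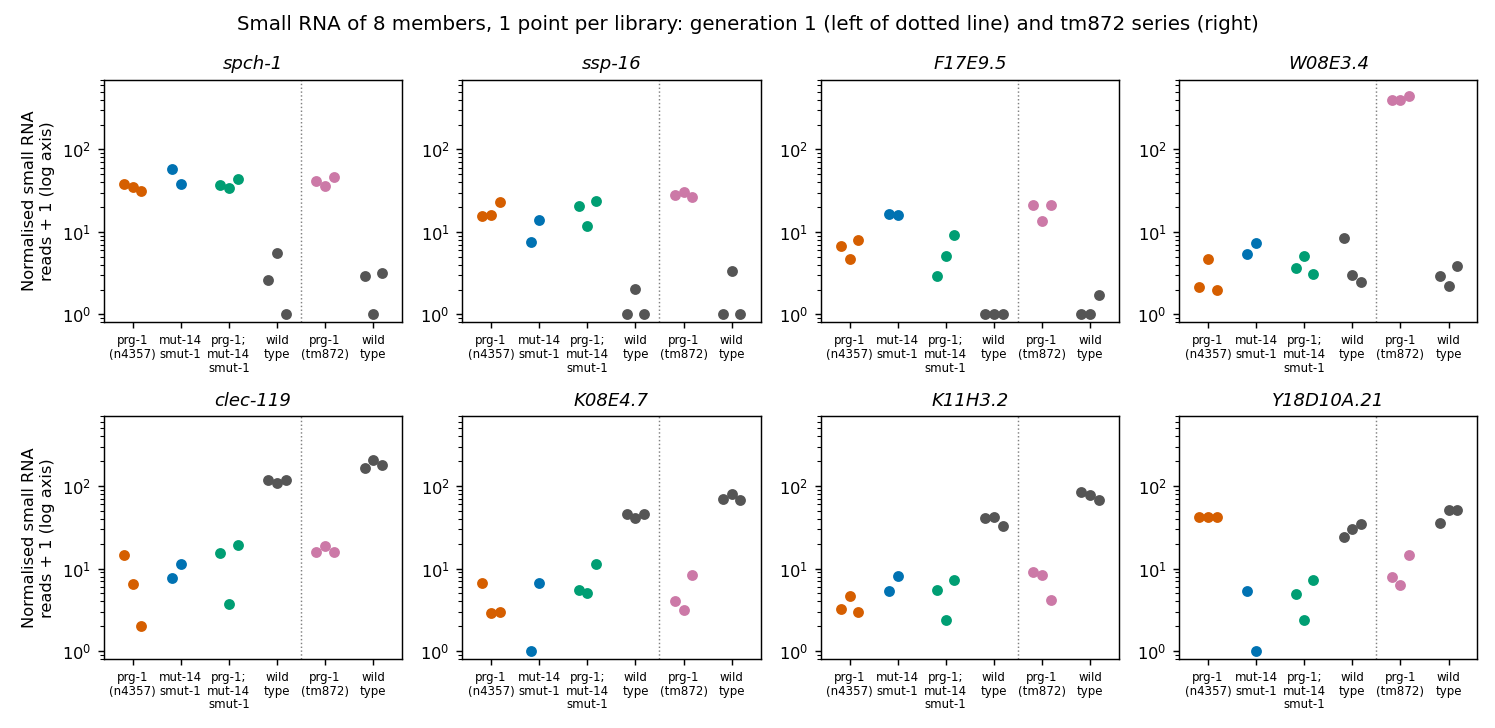
Normalised small RNA reads plus 1 of 8 members on log axes, with 1 point per library, for generation 1 (left of the dotted line) and the tm872 series (right). spch-1, ssp-16 and F17E9.5 are higher in all mutant libraries than in the wild type, W08E3.4 is high in prg-1(tm872), and clec-119, K08E4.7 and K11H3.2 are lower in all mutant libraries than in the wild type.

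Small RNA and mRNA of a member moved in the same or in opposite directions at generation 1. The small RNA here is all that was counted at a gene, not the ALG-3/4 class alone. In prg-1(n4357), 19 members were called in both, of which 15 rose in both, 3 (K11H3.2, T23G11.1 and Y43F8C.5) lost small RNA while the mRNA rose, and lin-61 gained small RNA while the mRNA fell. The small RNA rise of lin-61 there may depend on the scaling, as given above. In mut-14 smut-1, 26 were called in both: 18 rose in both, lrk-1 fell in both, 5 (Y18D10A.21, clec-119, Y43F8C.5, K08E4.7 and K11H3.2) lost small RNA while the mRNA rose, and lin-61 and eef-1A.1 gained small RNA while the mRNA fell. Of all 6970 genes tested in both, 2.58% rose in both in prg-1(n4357) and 0.947% in mut-14 smut-1. Small RNA was lost while the mRNA rose for 428 genes in prg-1(n4357) and 838 in mut-14 smut-1. Both fell for 16.6% of all genes in prg-1(n4357) and 22.1% in mut-14 smut-1. Small RNA was gained while the mRNA fell for 17.3% in prg-1(n4357) and 20.7% in mut-14 smut-1. Of the 30 members, 20 had passed the small RNA filter with a wild-type mean under 10, which favours a rise, so the members' shares are not set against these. K11H3.2 had 29.0, 19.3 and 19.9 mRNA reads in prg-1(n4357), 40.1, 44.7 and 29.8 in mut-14 smut-1, against 7.73, 7.55 and 8.39 in the wild type, so its mRNA was lowest in the wild type, where its small RNA was highest. T23G11.1 had 145, 124 and 120.3 mRNA reads in prg-1(n4357), 393, 306 and 289 in mut-14 smut-1, against 32.6, 32.1 and 25.2 in the wild type, while its small RNA was 5.67, 0.929 and 3.95 in prg-1(n4357), 13.2 and 7.22 in mut-14 smut-1, against 10.7, 8.1 and 14.9 in the wild type. Its small RNA call in prg-1(n4357) (adjusted p = 0.0195) was lost without replicate 2 of prg-1(n4357) (adjusted p = 0.0752) or without replicate 3 of the wild type (adjusted p = 0.0731).

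In the triple mutant against mut-14 smut-1, the small RNA of 1 of the 30 members was called at generation 1, where 6.08% of all genes were called, 2.9% higher and 3.18% lower, and the median log2 change was 0.02. The libraries of these 2 genotypes did not overlap for 2 members, as for 29.4% of all genes. That gene was F17E9.5, lower in the triple mutant (-1.65 ± 0.422, adjusted p = 0.0479), while its mRNA was higher there (0.61 ± 0.186, adjusted p = 0.0431). The small RNA call was lost (adjusted p of 0.0532 to 0.101) when any library of prg-1(n4357) or the wild type, or replicate 1 or 2 of the triple mutant, was left out, and F17E9.5 missed the filter on low values without either library of mut-14 smut-1. The difference of the prg-1 effects on small RNA was called for 18 members, 14 lower and 4 higher, where 51.3% of all genes were called, 20.4% lower and 31.0% higher. It was -4.13 ± 0.753 for spch-1 (adjusted p = 0.00115) and 4.93 ± 0.95 for K08E4.7 (adjusted p = 0.00161).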

How the data were processed

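Small RNA of 16 to 30 nt and rRNA-depleted RNA over 200 nt were sequenced from whole adults, per the labels' protocols. The values the authors deposited are a signal per gene, read counts divided by 1 factor per library; aligner, counting tool and genome build: not given in the sources used here. Within a tolerance of 0.1, all small RNA values and 94.67 to 97.35% of low mRNA values per library were whole reads, so reads and depth were recovered. From each mRNA table, transposon entries (587) were left out, and of 158 second entries of a gene the higher was kept. Features with 10 or more in as many libraries as the smallest group holds were tested with limma 3.58.1 (R 4.3.3, mean-variance trend, all groups of a table in 1 model) on log2(value + 1), with Benjamini-Hochberg adjustment over all features of a table and a threshold of 0.05. The 5 tables were normalised separately. Fold changes on this scale understate the change of low genes. edgeR 4.0.16 (quasi-likelihood) on recovered reads, other scalings, pseudocounts and filters, a replicate block and leaving out each library were the alternatives. Data were simulated from the generation 1 mRNA and the generation 1 small RNA alone, for prg-1(n4357) against the wild type. The limma test recovered known changes in them. This does not vouch for calls that rest on single libraries or for groups whose lines spread widely. Names came from RefSeq for 96 members. No sequences were available and a further table of 6 wild-type libraries was not used here.

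The members, gene lists and tests were chosen with earlier results of these data known. Named members are the 10 with the most generation 50 small RNA, those at the threshold, those with the largest changes per comparison, with opposite calls in small RNA and mRNA, or called in most comparisons; spch-2, ncr-2, dlc-6, ubc-24, ampd-1, C05C12.5, the untested members and the neighbours were picked after their values were seen.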

Additional observations from a re-analysis of the deposited data

Results flagged for a closer look

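The change in the triple mutant against mut-14 smut-1 differed from the change in prg-1(n4357) against the wild type, by a test of the difference itself on the log2 scale. The first pair differs by label in unc-119(ed3) as well as in prg-1, and their parts cannot be told apart. In the generation 1 mRNA the difference was lower for 59 members and higher for 2, and it was -2.64 for H08M01.1, -2.54 for B0280.17 and 0.31 for lin-61. B0280.17 had 104, 71.3 and 89.4 normalised mRNA reads in prg-1(n4357), 194, 188 and 199 in mut-14 smut-1; the triple mutant had 300.1, 214 and 232, and 19.8, 18.9 and 3.15 in the wild type. For most called members the triple mutant thus exceeded mut-14 smut-1 by less, on a log scale, than prg-1(n4357) exceeded the wild type. The call of lin-61 was lost with TMM scaling (adjusted p = 0.124), with library totals (adjusted p = 0.128) and with edgeR on recovered reads (adjusted p = 0.055).

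In the generation 1 small RNA the difference was lower for 14 members and higher for 4. It was -4.31 for F17E9.5, -4.13 for spch-1 and 4.93 for K08E4.7. F17E9.5 was at 0 in the wild type, so its fitted value depends on the pseudocount. In the generation 50 mRNA the difference was lower for 7 members and higher for 0. It was -4.08 for F10C1.3 and -3.63 for B0252.5, and both calls were lost when most single lines were left out.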

How the results depend on the processing

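No called member changed sign under an alternative. With no filter on low values the members called numbered 52 (prg-1(n4357)), 63 (mut-14 smut-1) and 0 (triple mutant against mut-14 smut-1) in the generation 1 small RNA, 38 for its difference of prg-1 effects and 59 in the tm872 series. With a filter at 50 they numbered 3, 3, 0, 2 and 6 there, 54 and 57 in the mutants against the wild type in the generation 1 mRNA, 33 for prg-1(n4357) in the generation 50 mRNA and 1 for the triple mutant there; fewer genes are tested. With library totals, which let more members through the filter in the generation 1 small RNA, they numbered 49 for mut-14 smut-1 and 2 for the triple mutant there. For the generation 50 difference they numbered 11. With a pseudocount of 10 they numbered 21 for the triple mutant at generation 1, 1 at generation 50 and 23 for the generation 50 difference. With edgeR on recovered reads, which called 7566 genes in prg-1(n4357) at generation 1 and 1214 at generation 50, they numbered 31 for the triple mutant at generation 1 and 21 for prg-1(n4357) at generation 50. A minimum mean of 5 gives 246 members and one of 20 gives 34. Where no value bears on it, the cause was not tested.

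Leaving out each library in turn gave, in the generation 1 small RNA, 20 to 24 members called in prg-1(n4357), 20 to 26 in mut-14 smut-1, 0 to 2 in the triple mutant and 13 to 18 for the difference, and 8 to 13 in the tm872 series. It gave 80 to 85, 91 to 94, 4 to 14 and 46 to 61 in the generation 1 mRNA, and 3 to 79, 48 to 91, 0 to 8 and 1 to 68 in the generation 50 mRNA. A group left with 1 library is assumed to vary like the others.

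With the replicate number as a block the counts were 23, 25, 1 and 18 in the generation 1 small RNA, 16 in the tm872 series, 84, 94, 13 and 61 in the generation 1 mRNA and 59, 81, 0 and 8 in the generation 50 mRNA. The numbers did not pair the samples: deviations from the group means of same-numbered samples correlated at -0.008, 0.023, -0.041 and -0.054 on average in the generation 1 mRNA, generation 50 mRNA, generation 1 small RNA and tm872 series. Of 1817 alternatives tried on 105 named values, 1665 kept the call and 152 lost it. At generation 50, smz-1, spch-3, ssp-35 and F40G12.10 were among those not called in prg-1(n4357) with edgeR. The depth of the mut-14 smut-1 and triple mutant small RNA libraries limits what can be detected there.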
